A study of Homo sapiens with 6 samples.

Results

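The transcription factors that specify the eye field and the retinal pigment epithelium (RPE) were followed in WT and POLDIP2 KO cells of ARPE-19, an established human RPE cell line. The set has 9 genes of the 37902 in the table: MITF, OTX2, SOX9 and TFEC, which act in RPE identity, and PAX6, RAX, LHX2, SIX3 and SIX6, which act in the eye field. It was chosen by gene function and by measured values of the comparison described here, since RAX was near 0 in POLDIP2 KO. The levels and fold changes of the 9 genes are therefore given as a description. Their standard errors and intervals show precision only, and counts of calls among them are given without a reading. RNA was sequenced from 3 biological replicates of each line at day 3 of regular maintenance, as 100-base reads of stranded mRNA libraries. The POLDIP2 KO line was made with a lentivirus carrying SpCas9 and a guide RNA against POLDIP2, a gene associated with age-related macular degeneration, and was selected with puromycin and expanded. It is 1 line, the methods name no step of single-cell cloning, and no line transduced with an empty vector is among the 6 libraries. Values are read counts that were divided by a size factor for each library, called normalised counts here, and the table holds 31532797 to 45795509 reads assigned to genes per library.

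In the vertebrate eye, RAX, PAX6, LHX2, SIX3 and SIX6 are homeobox factors that mark the eye field of the anterior neural plate and act in early eye development. In the outer layer of the optic cup, MITF, a basic helix-loop-helix leucine zipper factor, and OTX2, a homeobox factor, turn on pigment genes, while SOX9, a factor with an HMG box, acts with them on genes of the visual cycle. TFEC is a close relative of MITF that is found in the RPE, and PAX6 is used in both the RPE and the neural retina.

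The targeted gene was checked first. POLDIP2 was measured at 3919, 4827 and 4798 normalised counts in WT and at 1063, 1248 and 1143 in POLDIP2 KO, a ratio of 0.255. As an RPE model the line was incomplete. KRT8, a keratin of simple epithelia, had 39540 ± 3771 normalised counts in WT (mean ± SD, n = 3 here and below) against 41129 ± 7140 in POLDIP2 KO, and its partner KRT18 had 32125 ± 1906 against 31697 ± 3581, whereas RPE65, the isomerohydrolase of the visual cycle, and TTR, a carrier of thyroxine and retinol-binding protein, were at 0 in all 6. Across the table, 25 of 14684 genes with a mean of at least 10 were called, 12 higher and 13 lower in POLDIP2 KO, where a call needs more than a 1.5-fold change and p below 0.05 after Benjamini-Hochberg adjustment in limma. Before adjustment 951 genes had p below 0.05. The labels call the libraries biological replicates and do not say how the cultures were kept apart, so the errors cover the spread between these libraries, which may be technical.

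3 of the 9 genes are shown by the sequence before their start, because they stand for the 3 patterns that follow. RAX was near 0 in POLDIP2 KO, SIX6 was at 0 in both lines and LHX2 was present in both. The 250 bases before the RefSeq start on GRCh38.p14 are written 5′ to 3′ on the strand of the gene, with each CpG in capitals.
RAX, chr18:59273455-59273704, minus strand: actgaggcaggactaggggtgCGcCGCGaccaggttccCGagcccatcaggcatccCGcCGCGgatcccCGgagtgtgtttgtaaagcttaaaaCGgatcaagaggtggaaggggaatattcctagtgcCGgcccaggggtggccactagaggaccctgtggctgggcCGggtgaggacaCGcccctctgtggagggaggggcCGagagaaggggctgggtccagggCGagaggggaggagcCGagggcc
SIX6, chr14:60508896-60509145, plus strand: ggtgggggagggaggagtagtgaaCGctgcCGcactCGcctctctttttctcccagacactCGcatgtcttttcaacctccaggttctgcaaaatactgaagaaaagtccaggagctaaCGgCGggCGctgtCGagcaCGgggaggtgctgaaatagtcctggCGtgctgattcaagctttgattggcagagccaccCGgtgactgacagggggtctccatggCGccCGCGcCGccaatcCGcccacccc
LHX2, chr9:124011518-124011767, plus strand: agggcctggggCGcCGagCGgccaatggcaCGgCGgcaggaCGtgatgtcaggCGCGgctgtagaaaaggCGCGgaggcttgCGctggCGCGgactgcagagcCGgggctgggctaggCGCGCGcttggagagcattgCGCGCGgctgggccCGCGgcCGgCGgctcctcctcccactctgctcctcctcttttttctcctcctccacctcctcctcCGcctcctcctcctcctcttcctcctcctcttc
In GENCODE release 44 none of the 3 windows overlapped an exon. The windows of RAX and LHX2 each lay in an intron of a transcript of the same gene with an earlier start, and that of SIX6 lay in an intron of a transcript of its neighbour C14orf39. The printed stretch held 15 CpG in RAX, 16 in SIX6 and 25 in LHX2, and its GC content was 66.4%, 60% and 70.4%. With the 50 bases after the start included, RAX held 20 CpG, more than 58.8% of the 35116 promoters in the RefSeq table, SIX6 held 23 and LHX2 held 30, against a median of 14. A RefSeq promoter was given for 7 of the 9 genes, with 19 starts in all, of which 9 belong to PAX6 and 3 to MITF. Counts per gene do not tell these starts apart.

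A set of 5 short motifs was looked for on both strands of the 300-base windows, and the letters are a description only. The E-boxes CACGTG and CATGTG, which factors of the MITF family can bind, were in 7.26% and 11.1% of all promoters. CACGTG was in 0 windows of the set, and 3 windows, of OTX2 and PAX6, held CATGTG. The homeodomain core TAATTA was in 4.84% of all promoters and in 1 window of MITF. The OTX core TAATCC, which begins with the same 4 letters, was in 6.36% of all promoters and in 0 windows of the set. The SOX core ACAATG was in 10.8% of all promoters and in windows of MITF, PAX6 and TFEC. The windows of RAX, SIX6 and LHX2 held none of the 5 motifs.

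RAX was the gene of the set whose lines lay apart. This homeobox factor is among the first to mark the eye field, and its gene spans chr18:59267035-59274086 on the minus strand. WT replicates 1, 2 and 3 had 47.2, 17.1 and 8.35 normalised counts of RAX, and POLDIP2 KO replicates 1, 2 and 3 had 0, 0.814 and 0. These values stand for 50, 17 and 8 reads in WT and for 0, 1 and 0 reads in POLDIP2 KO. All 3 WT libraries were above all 3 POLDIP2 KO libraries, but the WT libraries themselves differed by 5.65 times between the highest and the lowest. The exact 95% Poisson intervals of the reads, which cover counting error only, were 37.1 to 65.9, 9.90 to 27.2 and 3.45 to 15.8 in WT. In POLDIP2 KO the intervals of the 0 reads in replicates 1 and 3 ended at 3.69. That of the 1 read in replicate 2 ended at 5.57. All of these ends lay above the lower bound of WT replicate 3.

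The mean of RAX was 24.2 ± 20.4 normalised counts in WT against 0.271 ± 0.470 in POLDIP2 KO (SD, n = 3 each). Summed over libraries there were 75 reads in WT and 1 in POLDIP2 KO, and per read assigned to a gene RAX was 77.6 times as frequent in WT, with an exact counting interval of 13.5 to 3107. WT replicate 1 gave 50 of the 75 reads. Without it the ratio was 40.1, with an interval of 6.57 to 1648. Both intervals pool reads over libraries and leave out the spread between libraries, so they are too narrow for a comparison of lines. On the log2(normalised count + 1) scale the difference was −4.04 (SE 0.86, 95% interval −6.08 to −2.01). That value depends on the number added before the logarithm, and was −2.24 with 5 added and −6.08 in DESeq2. In bulk RNA, fewer cells with RAX and less RAX RNA per cell cannot be told apart.

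**Figure D1:**
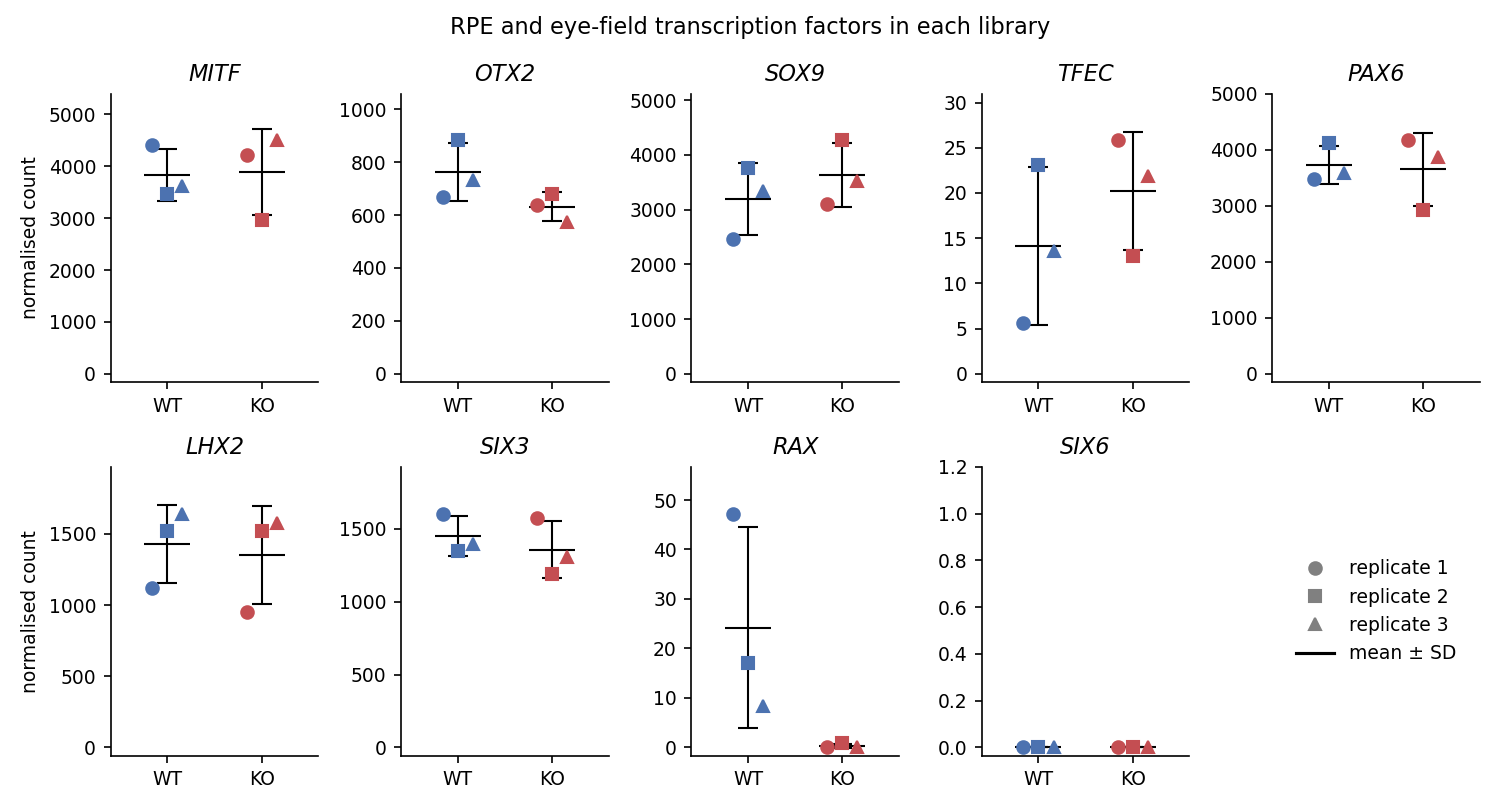
Normalised counts of the 9 factors in each library, on linear axes that start at 0 and differ between panels; symbols give the replicate number, and the black bars the mean ± SD of 3 libraries per line. RAX lies at 8.35 to 47.2 in WT and at 0 to 0.814 in POLDIP2 KO, SIX6 is at 0 throughout, and the libraries of the lines overlap for the other 7.

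RAX was low in WT as well. Per kilobase of its transcript it was at 7.44 ± 6.27 normalised counts in WT, where 5.59% of the genes with a level per kilobase were lower, and at 0.08 ± 0.14 in POLDIP2 KO, where 0.09% were lower. Its paralogue RAX2, which is used in photoreceptors, was at 0 in all 6 libraries. Of the 2 nearest genes in the table on either side, SEC11C, a subunit of the signal peptidase, had 772 ± 51.5 normalised counts in WT against 668 ± 79.9 in POLDIP2 KO, and LMAN1, a lectin of the early secretory pathway, had 10755 ± 624 and 11085 ± 229. Both overlapped between the lines. GRP, which encodes a neuropeptide, was at 0, and CPLX4, a complexin of retinal synapses, did not pass 2.09 normalised counts in any library. SEC11C was nevertheless lower in POLDIP2 KO in all 3 pairs of libraries with the same replicate number, by log2 differences of −0.29, −0.14 and −0.21, and LMAN1 in 1 of 3.

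RAX was the only one of the 9 genes with no overlap between the lines. Across the table, 5.44% of the genes tested had all POLDIP2 KO libraries below all WT libraries and 5.46% had them all above. Of the 8 measured factors 0 were called in limma, against 0.17% of all genes, 0 in edgeR, against 0.116%, and 1 in DESeq2, against 1.7%. In limma 1 of the 8 had p below 0.05 before adjustment. Both of these single genes are RAX, which was chosen on this comparison and passed the minimum mean through its WT libraries alone, so nothing is read from these counts. WT replicate 1 also decides whether RAX can be counted, because without it the mean over libraries was 5.24 and below the minimum of 10.

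MITF and PAX6 had the smallest differences between the lines. MITF (chr3:69739456-69968336), the central regulator of pigment cell genes, had 4401, 3463 and 3629 normalised counts in WT against 4217, 2955 and 4503 in POLDIP2 KO. Replicate 2 was the lowest in both lines and the lines overlapped over most of their range. The means were 3831 ± 501 and 3892 ± 824, a log2 difference of 0.01 (SE 0.18, 95% interval −0.43 to 0.44). PAX6 (chr11:31784779-31817961), a paired-box and homeobox factor of eye development, had 3485, 4119 and 3596 normalised counts in WT against 4174, 2925 and 3868 in POLDIP2 KO. The lowest library was replicate 1 in WT and replicate 2 in POLDIP2 KO, and the highest ones were close to each other. Its log2 difference was −0.04 (SE 0.16, −0.41 to 0.32).

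OTX2 and SOX9 had small differences with one sign in every pair of replicates with the same number. OTX2 (chr14:56799905-56816693), which drives pigment genes together with MITF, had 669, 883 and 733 normalised counts in WT against 638, 681 and 574 in POLDIP2 KO. The value of POLDIP2 KO replicate 2 lay above that of WT replicate 1, so the lines overlapped. The log2 difference was −0.26 (SE 0.15, −0.62 to 0.09), with −0.07, −0.37 and −0.35 in the 3 pairs. SOX9 (chr17:72121020-72126416), which activates visual cycle genes in the RPE and collagen genes in cartilage, had 2468, 3770 and 3334 normalised counts in WT against 3108, 4269 and 3526 in POLDIP2 KO. Replicate 1 was the lowest and replicate 2 the highest in both lines. The log2 difference was 0.20 (SE 0.19, −0.25 to 0.65), with 0.33, 0.18 and 0.08 in the 3 pairs.

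LHX2 and SIX3 had their replicates in the same order in both lines. LHX2 (chr9:124001670-124033301), a LIM homeobox factor that keeps optic vesicle identity, had 1119, 1521 and 1642 normalised counts in WT against 952, 1520 and 1576 in POLDIP2 KO. Replicate 1 was the lowest in both lines. SIX3 (chr2:44941702-44946071), which represses Wnt signals in the forebrain and eye field, had 1605, 1352 and 1396 normalised counts in WT against 1575, 1191 and 1310 in POLDIP2 KO. Replicate 1 was here the highest, and replicate 2 the lowest, in both lines. The log2 difference was −0.10 for LHX2 (SE 0.24, −0.66 to 0.46) and −0.10 for SIX3 (SE 0.14, −0.43 to 0.23), and both were lower in POLDIP2 KO in all 3 pairs.

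TFEC and SIX6 were at or near the limit of detection. TFEC (chr7:115935148-116159896) had 5.67, 23.1 and 13.6 normalised counts in WT, from 6, 23 and 13 reads, and 25.8, 13.02 and 21.8 in POLDIP2 KO, from 21, 16 and 22 reads. Its lowest and second highest libraries were both WT, and the log2 difference of 0.63 had an interval from −0.81 to 2.06 (SE 0.61). SIX6 (chr14:60509146-60512850), a close relative of SIX3 that is used in the retina and pituitary, had 0 reads in all 6 libraries. The floor of detection was set at 3 reads, which is 2.44 to 3.69 normalised counts per library. SIX6 lay below it in all 6 libraries, so no comparison was possible.

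Over the 8 measured factors the median log2 difference was −0.07, against −0.00 for all genes tested. For 3 of them, MITF, PAX6 and SIX3, the 95% interval stayed within a 1.5-fold change either way. For OTX2, SOX9 and LHX2 it reached past 1.5-fold on 1 side, and TFEC had the widest interval after RAX. RAX and TFEC were also the least even factors within WT: 95.9% and 93.9% of the genes tested had a smaller SD over the WT libraries on the log2 scale, against 25.6% for PAX6 and 26.6% for SIX3. These ranks are over genes of all levels. RAX and TFEC had few reads, so low counts and uneven expression cannot be told apart here.

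**Figure D2:**
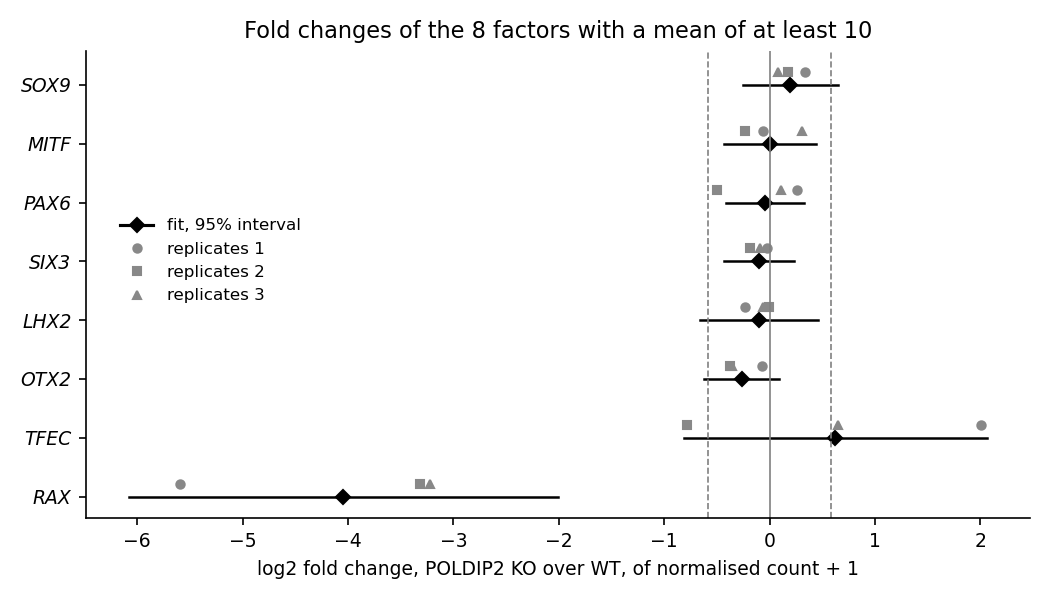
Log2 fold changes of POLDIP2 KO over WT for the 8 factors with a mean of at least 10; diamonds and bars are the fitted value and its 95% interval, grey symbols the differences between libraries with the same replicate number, and dashed lines a 1.5-fold change. RAX, which was chosen for its values in POLDIP2 KO, is plotted at −4.04, the other 7 lie between −0.26 and 0.63, and the intervals of MITF, PAX6 and SIX3 stay between the dashed lines.

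Levels of different genes were compared per kilobase of the canonical transcript. In WT the order was PAX6 at 1361 ± 123 normalised counts per kilobase, SOX9 at 812 ± 169, MITF at 798 ± 104, LHX2 at 596 ± 114, SIX3 at 535 ± 49.9, OTX2 at 253 ± 36.5, RAX at 7.44 ± 6.27, TFEC at 2.12 ± 1.31 and SIX6 at 0. SOX9 and MITF, LHX2 and SIX3, and RAX and TFEC overlapped in WT and cannot be ordered. PAX6 was 1.68 times SOX9 without overlap in WT, but the 2 genes overlapped in POLDIP2 KO, as did MITF and LHX2. SIX3 was above OTX2 without overlap in both lines, by 2.11 times in WT and 2.39 times in POLDIP2 KO. In POLDIP2 KO the levels were 1333 ± 237 for PAX6, 924 ± 150 for SOX9, 811 ± 172 for MITF, 563 ± 144 for LHX2, 501 ± 72.4 for SIX3 and 209.7 ± 17.96 for OTX2, in the same order of means, and TFEC, at 3.04 ± 0.99, was above RAX without overlap. In WT, PAX6 was above 87.0% of the genes with a level per kilobase and OTX2 above 49.1%.

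Each factor was then set beside its paralogues. MITF made up 29.4% of the summed level per kilobase of the MiT family in WT and 29.9% in POLDIP2 KO. TFE3, a ubiquitous member that responds to lysosomal stress, made up 67.0% and 65.9%, TFEB 3.50% and 4.07%, and TFEC 0.08% and 0.11%. OTX2 was 86.0% of the OTX family in WT and 84.5% in POLDIP2 KO, with OTX1 at 10.5% and CRX, the photoreceptor member, at 3.51% in WT. SOX9 was 97.2% and 98.3% of the SOXE factors, SOX8 took the rest, and SOX10, the neural crest member, was at 0. SIX3 was 67.95% of SIX2 to SIX6 together in WT and 64.9% in POLDIP2 KO, and PAX2, which marks the optic stalk, was at 0 beside PAX6.

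**Figure D3:**
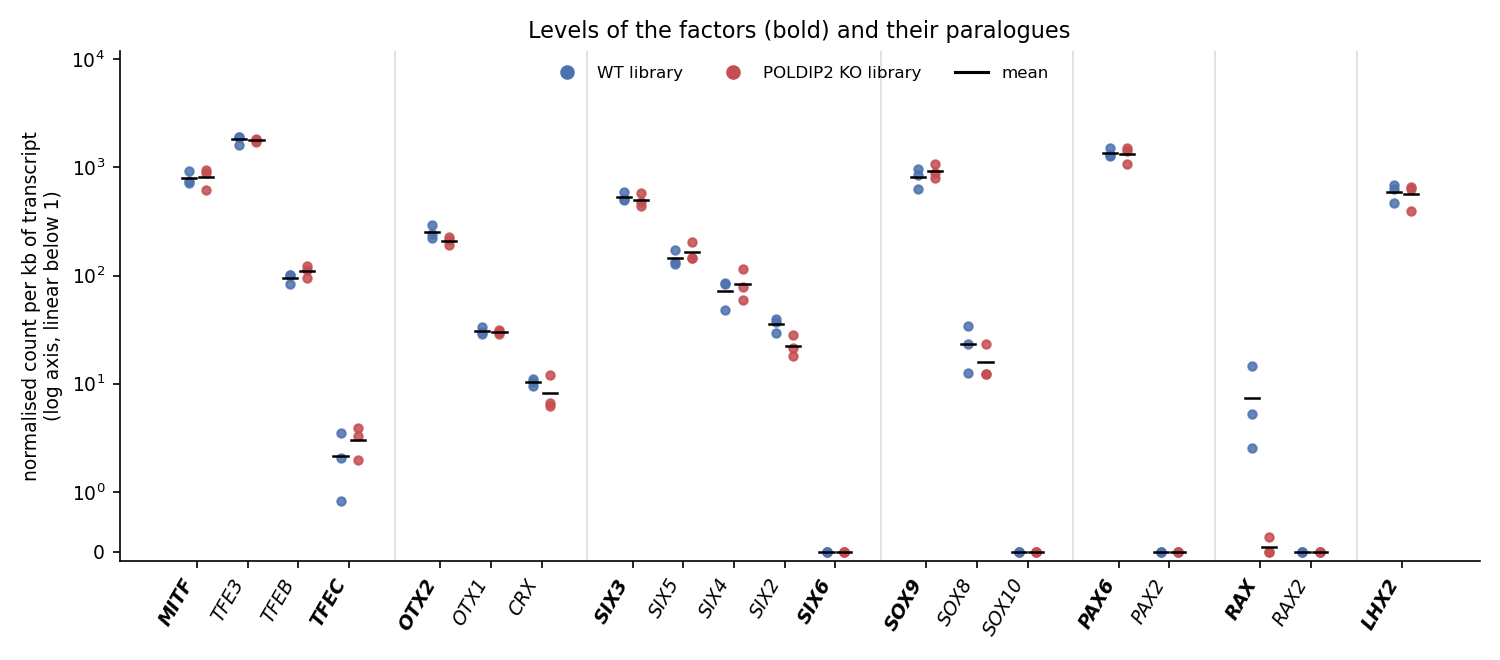
Levels per kilobase of transcript of the 9 factors (bold) and their paralogues by family, on a log axis that is linear below 1; points are libraries and bars the mean of 3. SIX6, SOX10, PAX2 and RAX2 are at 0 in all 6 libraries, RAX is at 2.57 to 14.5 in WT and at most 0.250 in POLDIP2 KO, and TFE3 is above MITF in both lines.

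Related genes were counted by lists. Over all lists of other genes 0 were called in limma. In edgeR and DESeq2, which were counted without the lists of cell type markers, 0 were called as well. Before adjustment 2 (NR2F1 and ZIC2) had p below 0.05 in limma, against 951 of the 14684 genes tested. Of 22 genes with values on the list of other optic cup factors, 13 had a mean of at least 10. Of these 13, 0 were called, 2 were higher and 1 lower without overlap, and the median log2 difference was −0.03. Among all genes tested 0.17% were called, and 5.46% were higher and 5.44% lower without overlap. Nothing is read from the counts of so few genes. NR2F1 and NR2F2 are nuclear receptors that direct the early optic cup towards RPE. NR2F1 had 4082, 3040 and 3882 normalised counts in WT against 6417, 4602 and 5912 in POLDIP2 KO, where each library was above every WT library. Its log2 difference was 0.62 (SE 0.17, adjusted p = 0.385, limma). The adjusted p of NR2F1 was 0.389 in edgeR, 0.053 in DESeq2 and 0.065 in limma with the replicate block. NR2F2 had 8612 ± 760 and 8404 ± 1019, a log2 difference of −0.04. ZIC2, a zinc finger factor of the optic stalk and ventral retina, had 82.7 ± 10.8 and 149.7 ± 60.4 normalised counts without overlap, a log2 difference of 0.78 (SE 0.32, adjusted p = 0.754, limma). TBX2, a T-box factor of the dorsal optic cup, had 142 ± 31.5 and 105.5 ± 7.58, also without overlap (log2 difference −0.41, adjusted p = 0.955).

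SIX2, a relative of SIX3 and SIX6 that acts outside the eye field in the kidney, had every POLDIP2 KO library below every WT library but did not pass the test. It had 64.2, 88.3 and 81.4 normalised counts in WT against 46.7, 62.7 and 39.7 in POLDIP2 KO, a log2 difference of −0.65 (SE 0.30, adjusted p = 0.830, limma). SIX2 is a neighbour of the set and lies 59.1 kb from SIX3 on chromosome 2. SIX4 had 314, 538 and 551 normalised counts in WT against 388, 741 and 510 in POLDIP2 KO, with overlap and a log2 difference of 0.22. Of the 9 SIX-type, EYA and DACH genes counted here, 6 were measured, 0 passed, 0 were higher and 1 lower without overlap, and the median was 0.11. The shares over all genes tested were 0.17% called, 5.46% higher and 5.44% lower without overlap. SIX5 (484 ± 81.2 and 550 ± 112 normalised counts) and EYA3, a phosphatase and coactivator (1206 ± 182 and 1329 ± 96.0), overlapped.

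Of the MiT and SOXE paralogues, 3 of 4 were measured, 0 passed and all overlapped, with a median log2 difference of −0.02. TFE3 had 5990 ± 561 normalised counts in WT against 5871 ± 173 in POLDIP2 KO, TFEB 222 ± 22.7 and 257 ± 34.0, and SOX8 72.2 ± 33.6 and 49.1 ± 19.3.

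Genes that MITF, OTX2 and SOX9 are known to activate in the RPE were mostly low in both lines. Of 16 such genes, 7 were measured, 0 passed, all 7 overlapped between the lines, and the median log2 difference was 0.03. GPNMB, a melanosomal and lysosomal glycoprotein, was the most abundant, at 25095, 18137 and 12555 normalised counts in WT against 25500, 13550 and 23132 in POLDIP2 KO. GPR143, the receptor mutated in ocular albinism, had 1161 ± 157 and 1185 ± 133. BEST1, a chloride channel of the basolateral RPE membrane, ranged from 61.4 to 562 in WT and from 239 to 669 in POLDIP2 KO, so the libraries of one line differed more than the means of 333 and 442. RLBP1, the retinaldehyde-binding protein, had 43.3 ± 21.6 and 26.5 ± 9.82. TYR, the first enzyme of melanin synthesis, did not pass 2.98 normalised counts in any library. RPE65, RGR and TRPM1 were at 0.

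The cartilage targets of SOX9 were measured in 3 of 10 cases, and 0 passed. COL11A1, a fibrillar collagen, had 47801, 24160 and 22819 normalised counts in WT against 56259, 26363 and 37845 in POLDIP2 KO, with replicate 1 highest in both lines. COL9A2 had 98.3 ± 37.6 and 129 ± 14.4, and MATN3, a matrix protein, 289 ± 71.96 and 305 ± 60.3. The median log2 difference of these 3 genes was 0.36 and all 3 overlapped. COL2A1, the main cartilage collagen, was at 0 in 5 libraries and at 3.97 in POLDIP2 KO replicate 3.

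**Figure D4:**
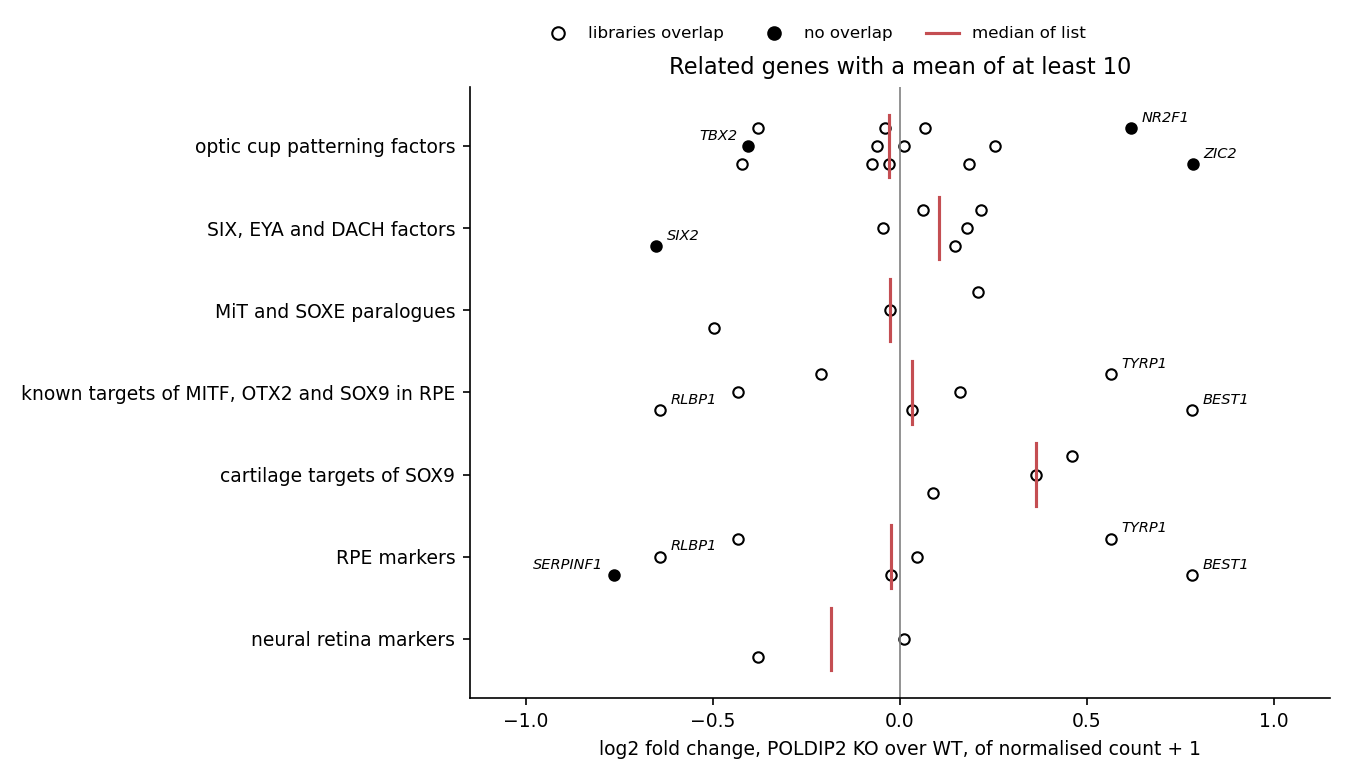
Log2 fold changes of POLDIP2 KO over WT for listed genes with a mean of at least 10; filled points are genes whose 3 libraries per line do not overlap, and red lines the median of each list. The medians lie between −0.18 and 0.36, and the filled points are NR2F1 and ZIC2 to the right and TBX2, SIX2 and SERPINF1 to the left.

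Markers of the other cell types that could be present were at low levels. The summed normalised counts of 6 neural retina markers were 52.2 to 62.2 in WT and 45.5 to 59.4 in POLDIP2 KO, mainly CRX (45.1 ± 3.21 and 36.0 ± 13.98) and NRL (10.2 ± 3.41 and 11.4 ± 6.70), and ARR3 and POU4F2 were at 0. The sums of 6 melanocyte markers were 10.4 to 14.05 in WT and 4.92 to 21.2 in POLDIP2 KO, and SOX10 and KIT were at 0. Of the 10 RPE markers 7 were measured, 0 passed, and 1, SERPINF1, the gene of pigment epithelium-derived factor, was lower without overlap, at 126 ± 36.0 and 74.9 ± 25.6 normalised counts (log2 difference −0.77, SE 0.34, adjusted p = 0.822, limma). Across all genes tested 5.44% were lower without overlap and 0.17% were called. KRT8 and KRT18, which other epithelia also express, made up 98.7% to 99.6% of the sum of the 10 RPE markers. The other 8 together had 294.7 to 913 normalised counts in WT and 464 to 810 in POLDIP2 KO. The ranges of the sums for neural retina, melanocytes and these 8 RPE markers overlapped between the lines, and what part such cells have in the difference in RAX was not tested.

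Genes with a profile like that of RAX were listed by Pearson correlation with it over the 6 libraries on the log2(normalised count + 1) scale. The 5 closest were CDHR1 (r = 0.992), CLIC6 (0.985), RNF144A (0.984), SPNS3 (0.980) and DNALI1 (0.979). The points share their libraries, and with 2 lines a gene that is lower in POLDIP2 KO tends to correlate with RAX, so no p value is given. CDHR1, a cadherin of photoreceptor outer segments, had 54.8, 37.1 and 10.4 normalised counts in WT against 0, 0.814 and 0 in POLDIP2 KO. Like RAX it was highest in WT replicate 1, lowest in WT replicate 3 and had 1 read in the POLDIP2 KO libraries. CLIC6, an intracellular chloride channel protein, was abundant, at 5223, 4922 and 3376 in WT and 1596, 2082 and 1793 in POLDIP2 KO. RNF144A, a ubiquitin ligase, had 47.7 ± 24.1 and 5.002 ± 1.09, SPNS3, a transporter-like protein, 117 ± 27.5 and 41.0 ± 9.98, and DNALI1, an axonemal dynein chain, 317 ± 76.0 and 133 ± 19.4. All 5 had every WT library above every POLDIP2 KO library. This separation and the order within WT come with the choice by correlation with RAX, so nothing is read from them. CDHR1 also passed the minimum mean through its WT libraries alone. Among the other factors of the set the correlation with RAX ran from −0.66 for TFEC to 0.60 for OTX2.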

How the data were processed

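RNA-seq of 3 WT and 3 POLDIP2 KO libraries was analysed from 1 table, with groups and replicate numbers from the labels. The deposited signal is a gene count from Salmon 1.8 on GRCh38 that the authors imported with tximport and scaled by the size factors of DESeq2 1.34.0. The annotation release is not given in the sources used here. GENCODE release 44 gave symbols, positions and canonical transcript lengths, and names 34152 of the 37902 genes. OTX2-AS1, SIX3-AS1, PAX6-AS1, PAUPAR and SOX9-AS1, which lie beside the set, are not analysed here.

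Dividing each column by its step of 1 read gave whole numbers for 100% of values within 0.001. This says little for 2 libraries, WT replicate 2 and POLDIP2 KO replicate 3, whose size factors are near 1. Length factors of tximport, if used, cannot be seen. Lines were compared with limma 3.58.1 (R 4.3.3, trended prior) on log2 of the normalised count plus 1, for means of at least 10. The fits were also run on simulated counts with known changes, drawn independently for each library, and nothing is read from that run here. The alternatives were edgeR 4.0.16 and DESeq2 1.42.0 on the recovered reads, pseudocounts 0.5 and 5, a minimum mean of 50 or none, quantile and TMM scaling, robust and untrended priors, a replicate block, and each library left out. Deviations from the mean of the line correlated over genes at r = 0.315, 0.138 and 0.130 for equal replicate numbers. For unequal numbers r was −0.259 to 0.147. The value of 0.147, for WT replicate 3 with POLDIP2 KO replicate 2, was above those of equal numbers 2 and 3. The labels do not pair the libraries, so differences within equal numbers are a description. Of the fits only the replicate block used the numbers.

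The 9 genes and all lists were chosen with earlier results of these data known. The genes named by rule were the 9 genes, RAX2, called genes, the 2 most abundant and the 2 most changed measured genes of each list, the 5 genes most correlated with RAX and the 2 nearest genes on either side. Others, such as TBX2, TYR, RPE65, TTR, RGR, TRPM1, COL2A1 and further paralogues, were named after their values were seen. A few genes of the lists are not reported here and were left out of the counts, sums and shares. Other software was Python 3.11.15 with pandas 2.3.3, numpy 2.4.6, scipy 1.17.1 and matplotlib 3.10.9.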

Additional observations from a re-analysis of the deposited data

How the results depend on the processing

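Over all genes limma called 25. Refitted, the count of called genes was 16 with a mean of at least 50, which tests 12765 genes, and 248 in DESeq2 on recovered reads, and the cause of the latter was not tested. It was 17 in edgeR and 30 with the replicate block. Under the replicate block 0 factors of the set were called, and 0 listed genes outside the lists of cell type markers. Leaving out 1 library gave 0 to 10 calls. WT replicate 2, WT replicate 3, POLDIP2 KO replicate 2 and POLDIP2 KO replicate 3 each gave 0 when left out, where limma had p below 0.05 before adjustment for 862, 903, 869 and 693 genes in turn. The count of called factors of the set was 0 in limma and 1, RAX, on which the set was chosen, in DESeq2, and the cause was not tested. Of 133 fold changes of the factors under the alternatives, 130 moved by less than 1 SD between replicates. The other 3 were RAX with a pseudocount of 5 (−2.24), in edgeR (−5.78) and in DESeq2 (−6.08). The count of 130 is no measure of stability, because much of it was fixed in advance. Filters, priors and the replicate block leave a fold change as it is. Leaving out 1 of 3 libraries cannot move it by 1 SD. Without 1 library OTX2 stayed between −0.35 and −0.15, SOX9 between 0.02 and 0.33 and SIX3 between −0.21 and −0.01, TFEC lay between 0.13 and 1.06 and RAX between −4.60 and −3.90 (without WT replicate 1 it was not tested), while MITF, PAX6 and LHX2 took either sign. With a mean of at least 50, RAX and TFEC were not tested. Per kilobase of coding length MITF was the second, SOX9 the third, SIX3 the fourth and LHX2 the fifth in WT, so the order within these pairs depends on the length used. Depth limited RAX, TFEC and SIX6, which had at most 50, 23 and 0 reads per library.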
